A study of Mus musculus with 9 samples.

Results

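The 38 Hox cluster genes described here were chosen by name, from the Hoxa, Hoxb, Hoxc and Hoxd clusters, and found on the arrays through the RefSeq accession of each probe. All 38 had a probe, among 20660 named genes. Mouse colon organoids, epithelial structures grown in culture from colon, were profiled on 9 Agilent single-colour arrays in 3 groups of 3. The group called 0 weeks was untreated, and the others had received reagents that the labels call inflammatory, without naming them, for 12 weeks or for 60 weeks. No untreated culture of 12 or 60 weeks was analysed here, so treatment and time in culture cannot be told apart. The labels do not give a strain, an age or a genotype, nor whether replicates came from separate animals or cultures. The p-values therefore measure the spread between these arrays, which may be technical.

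Hox genes encode homeodomain transcription factors that lie in 4 clusters, and the order of the genes along a cluster follows the order in which they are used along the body axis. Genes of the same number in different clusters are paralogs. Low numbers act towards the head and high numbers towards the tail. In the gut, combinations of Hox genes mark regions from foregut to hindgut. Their proteins bind DNA together with TALE homeodomain partners of the Pbx, Meis and Pknox families, and their clusters are held off by Polycomb complexes, opened by Trithorax complexes and controlled in embryos by retinoic acid and CDX factors.

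The sequences before the starts of 3 genes are shown because these genes carry the main findings below: Hoxa7 had the largest fall of a tested Hox gene at 60 weeks, Hoxa5 fell at both later times, and Hoxd10 was detected at 60 weeks alone. RefSeq (GRCm38.p6) gave 24 promoters for 22 of the 38 genes. Hoxb2 and Hoxc6 were not among them. The 250 bases before each start are given 5′ to 3′ on the strand of the gene, and capitals mark TTTATG, a core that CDX factors recognise.
Hoxa5 (chr6:52204588-52204837, minus strand): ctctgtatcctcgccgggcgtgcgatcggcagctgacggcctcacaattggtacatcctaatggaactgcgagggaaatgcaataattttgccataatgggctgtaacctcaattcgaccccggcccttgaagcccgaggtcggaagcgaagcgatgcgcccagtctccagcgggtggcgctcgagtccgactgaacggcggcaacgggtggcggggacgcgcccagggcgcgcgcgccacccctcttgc
Hoxa7 (chr6:52218574-52218823, minus strand): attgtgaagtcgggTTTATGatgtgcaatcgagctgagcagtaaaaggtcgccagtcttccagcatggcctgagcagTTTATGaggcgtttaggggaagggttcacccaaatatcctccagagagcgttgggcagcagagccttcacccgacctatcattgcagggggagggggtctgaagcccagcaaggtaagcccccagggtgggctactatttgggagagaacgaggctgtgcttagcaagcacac
Hoxd10 (chr2:74691641-74691890, plus strand): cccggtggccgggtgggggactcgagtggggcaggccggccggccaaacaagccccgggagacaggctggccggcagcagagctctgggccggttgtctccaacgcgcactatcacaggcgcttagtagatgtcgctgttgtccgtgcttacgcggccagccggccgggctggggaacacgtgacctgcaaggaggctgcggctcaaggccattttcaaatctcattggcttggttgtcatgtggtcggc
In all, 3 motifs were searched on both strands: TTTATG, the joint PBX-HOX site TGATTNAT and the TATA box TATAAA. Hoxa7 held TTTATG at positions -236 and -173 before its start, and neither Hoxa5 nor Hoxd10 held any of the 3. TTTATG occurred in 5 of the 24 Hox promoters and in 10.8% of 32851 mouse promoters of the same length. TGATTNAT occurred in 2 of 24, against 2.82%, and TATAAA in 4 of 24, against 12.4%. CG pairs numbered 28 in the Hoxa5 sequence, 20 in that of Hoxd10 and 7 in that of Hoxa7, with a median of 12.5 over the 24 and 6 over all promoters. These letters describe the windows and say nothing of binding.

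Levels are log2 intensities relative to the 75th percentile of each array, so 0 is a probe as bright as that percentile and 1 unit is a doubling. They can be compared between arrays for the same gene, not between genes. A gene counts as detected in a group where the scanner software called its probe well above background on at least 2 of 3 arrays. Between 49.2% and 52.7% of all probes were well above background per array. Replicate 2 of 12 weeks stood apart, with across-gene correlations of 0.978 and 0.977 to replicates 1 and 3, against 0.992 between those. The SD among replicates had a median over genes of 0.11, 0.21 and 0.15 for 0, 12 and 60 weeks. Changes are log2 differences ± SE from a limma fit of 14034 genes, and a gene is called where the Benjamini-Hochberg adjusted p is under 0.05.

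At 0 weeks 21 of the 38 Hox genes were detected, against 16 at 12 weeks and 18 at 60 weeks. Among all 20660 named genes the shares were 64.2%, 65.2% and 63.8%. Of the 24 genes of paralog groups 2 to 9, 20 were detected in at least 1 group, and 15 of them were well above background on all 9 arrays, as were 87.0% of the 14034 tested genes. Of the 12 genes of groups 10 to 13, only Hoxc12 at 0 weeks and Hoxd10 at 60 weeks were detected, and 9 were well above background on no array. Neither of the 2 measured genes of group 1, Hoxb1 and Hoxd1, was detected. In all, 22 Hox genes passed the filter for testing, as did 67.9% of named genes. The members that passed only through the group or groups where they were high were selected for being high there, so the counts over the 22 below are descriptions.

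**Figure D1:**
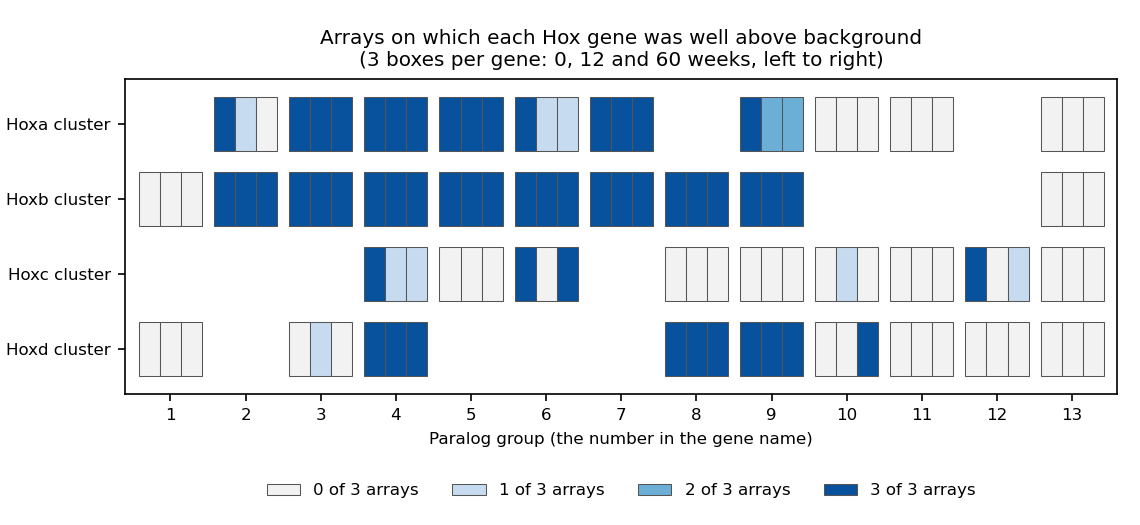
Each gene of a cluster (rows) and paralog group (columns) has 3 boxes for 0, 12 and 60 weeks, shaded by the number of arrays, 0 to 3, on which its probe was well above background. Empty positions hold no gene described here; the 8 Hoxb genes of groups 2 to 9 are dark throughout, while Hoxc6 is pale at 12 weeks and Hoxd10 dark at 60 weeks only.

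The 16 genes not tested were Hoxa10, Hoxa11, Hoxa13, Hoxb1, Hoxb13, Hoxc5, Hoxc8, Hoxc9, Hoxc10, Hoxc11, Hoxc13, Hoxd1, Hoxd3, Hoxd11, Hoxd12 and Hoxd13. Of them, 14 were well above background on no array. Hoxc10 was so on replicate 3 of 12 weeks alone, at -3.70, while Hoxd3 was so on replicate 1 of 12 weeks alone, at -4.46. The list includes Hoxa13, Hoxb13 and Hoxd13, genes of a group that patterns the end of the hindgut and the genital and limb buds. Their levels at 0, 12 and 60 weeks averaged -5.62, -6.64 and -6.63 for Hoxa13, -6.74, -6.81 and -6.80 for Hoxb13, and -6.97, -7.01 and -6.89 for Hoxd13. Values that low are not well above background and carry no fold.

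Between 0 and 12 weeks, 12 of the 22 tested Hox genes were called, 1 higher and 11 lower, where 41.8% of all tested genes were called, 19.1% higher and 22.7% lower. The median change was -0.70 over the 22 and -0.06 over all genes. Between 0 and 60 weeks 9 were called, 3 higher and 6 lower, against 32.8% of all genes, 16.7% higher and 16.1% lower, with medians of -0.33 and -0.04. Between 12 and 60 weeks 5 were called, 3 higher and 2 lower, against 38.3%, 20.7% higher and 17.6% lower, with medians of 0.13 and 0.02. The comparisons share arrays and are given side by side for that reason. In the F test among the 3 groups 11 of 22 were called, where 56.7% of all genes were. The arrays of the compared groups did not overlap for 16 of the 22 at 12 against 0 weeks, 15 at 60 against 0 and 9 at 60 against 12 weeks, where the shares over all genes were 54.6%, 56.5% and 47.3%.

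**Figure D2:**
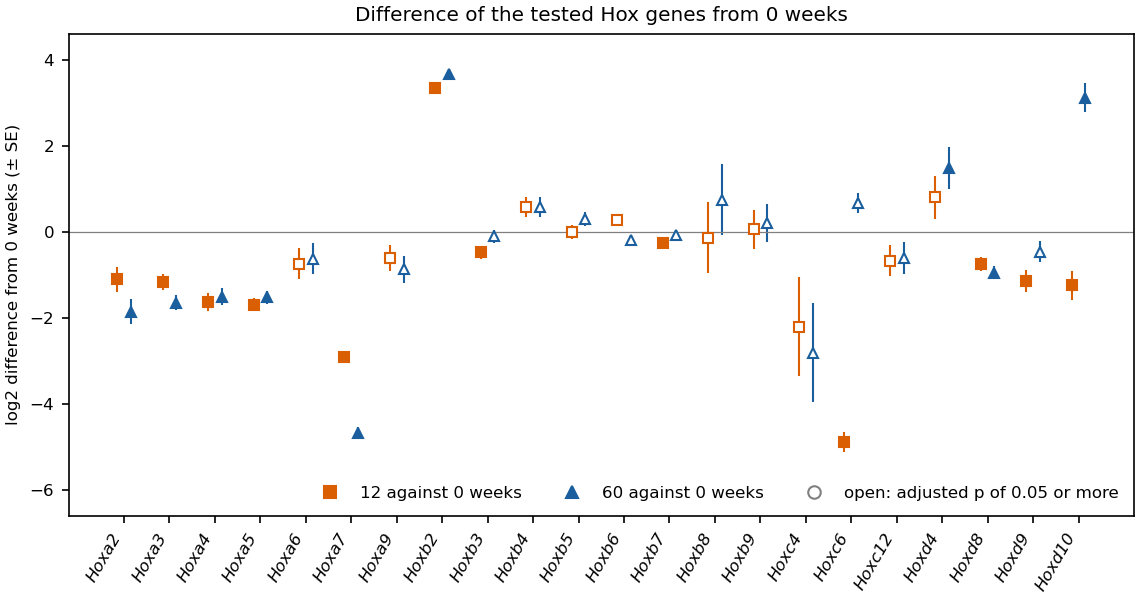
The log2 difference from 0 weeks (± SE, n = 3 arrays a group) is plotted for the 22 tested Hox genes at 12 weeks (squares) and 60 weeks (triangles); filled symbols have an adjusted p under 0.05. Hoxa2 to Hoxa5 and Hoxa7 lie below 0 at both times and Hoxb2 above 0 at both; for Hoxc6 and Hoxd10, and for Hoxa2 and Hoxc12, a group without any array well above background makes the plotted size no measured fold.

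Most tested genes of the Hoxa cluster fell. Hoxa2, Hoxa3, Hoxa4, Hoxa5 and Hoxa7 fell by 12 weeks and were lower than at 0 weeks at 60 weeks too, which is 5 of the 7 tested Hoxa genes each time, and none rose. Over all tested genes 22.7% were lower at 12 weeks and 16.1% at 60 weeks, and over the other tested genes of chromosome 6 the shares were 27.7% and 23.8%. The median change of the 7 was -1.17 at 12 weeks and -1.52 at 60 weeks. Hoxa3 spans Hoxa4, Hoxa5 and Hoxa6 in the annotation, so a probe in a shared stretch could read more than 1 of them.

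Hoxa7, a gene of the trunk region, had the largest change of the tested Hoxa genes. Its levels were 1.78, 1.56 and 1.79 at 0 weeks, -0.96, -1.41 and -1.23 at 12 weeks, then -2.89, -2.83 and -3.18 at 60 weeks. The 3 groups did not overlap and each later one was lower than the one before. Hoxa7 fell by 2.91 ± 0.15 at 12 weeks (limma adjusted p = 4.24e-06), and by 4.68 ± 0.15 at 60 weeks against 0 weeks (adjusted p = 3.77e-07). The further fall between 12 and 60 weeks was 1.77 as a level difference (-1.77 ± 0.15, adjusted p = 8.77e-05). All 3 calls held in each of the 21 alternative settings that gave a value.

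Hoxa5, which in the embryo patterns lung and gut mesenchyme, stood at -0.22, -0.43 and -0.39 at 0 weeks. At 12 weeks it was at -2.22, -1.72 and -2.19, and at 60 weeks at -1.76, -1.85 and -1.99. Every array of both later groups was below every array of 0 weeks, and the later groups overlapped each other. The change was -1.70 ± 0.15 at 12 weeks (limma adjusted p = 7.21e-05) and -1.52 ± 0.15 at 60 weeks (adjusted p = 0.000165), and the difference between the later groups was 0.18 ± 0.15 (adjusted p = 0.387). That last value passed the threshold without replicate 2 of 12 weeks (0.34, adjusted p = 0.0311).

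Hoxa4 followed the same course. It was at -1.88, -1.98 and -2.29 at 0 weeks, -3.75, -3.26 and -4.02 at 12 weeks, then -3.43, -3.52 and -3.73 at 60 weeks. The 0 weeks arrays lay above all the others. It changed by -1.63 ± 0.20 at 12 weeks (limma adjusted p = 0.000482) and -1.51 ± 0.20 at 60 weeks (adjusted p = 0.000857). The second call was lost with the row of the array on its slide as a block (adjusted p = 0.0675).

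Hoxa3, a gene of pharyngeal and neck structures, was at 1.08, 1.05 and 0.86 at 0 weeks, -0.30, 0.26 and -0.49 at 12 weeks, then -0.54, -0.72 and -0.69 at 60 weeks. The groups did not overlap. Hoxa3 fell by 1.17 ± 0.18 at 12 weeks (limma adjusted p = 0.00152) and by 1.65 ± 0.18 at 60 weeks (adjusted p = 0.000317). The difference of -0.47 ± 0.18 between 12 and 60 weeks was not called (adjusted p = 0.0723), though it was without replicate 3 of 12 weeks (-0.63, adjusted p = 0.0377).

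Hoxa2, a hindbrain and branchial arch gene, went from detected to not well above background. It was at -3.33, -3.49 and -3.43 at 0 weeks, on 3 of 3 arrays well above background. At 12 weeks the values were -5.06, -3.89 and -4.61, with 1 of 3 arrays well above background, and at 60 weeks -5.34, -5.62 and -4.86, with 0 of 3. Such a passage from 3 arrays to none between 0 and 60 weeks was seen in 1.25% of tested genes. The pattern was that of Hoxa2 itself, so the share is a description. At 60 weeks Hoxa2 was at least 2.51-fold lower than at 0 weeks (means -5.27 and -3.41, limma adjusted p = 0.00199), where the bound sets each 60 weeks array at the lowest signal it could call. Hoxa2 passed the filter through 0 weeks alone, the group where it is high, so its p-values are a description, as are those of Hoxa6, Hoxc4 and Hoxc12 for the same reason. At 12 weeks the change was -1.10 ± 0.29 (adjusted p = 0.0176). That call was lost without replicate 1 of 0 weeks (adjusted p = 0.0544), replicate 1 of 12 weeks (0.0510) or replicate 3 of 12 weeks (0.0530), over a range of adjusted p from 0.000482 to 0.0544 across 20 alternatives.

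Hoxa6 and Hoxa9, dimmer genes of the trunk and lumbar region, also had lower means later, and neither was called. Hoxa6 was at -4.27, -4.25 and -3.58 at 0 weeks, with 1 of 3 arrays well above background at 12 weeks (-5.35, -5.00, -3.97) and at 60 weeks (-5.03, -4.59, -4.34). Its changes were -0.74 ± 0.36 (limma adjusted p = 0.134) and -0.62 ± 0.36 (adjusted p = 0.222). The first was called without replicate 3 of 12 weeks (-1.14, adjusted p = 0.0187). Hoxa9 was at -3.66, -3.74 and -3.67 at 0 weeks, above all later arrays (-5.06, -3.96 and -3.88, then -4.41, -4.32 and -4.97), with changes of -0.61 ± 0.31 (adjusted p = 0.145) and -0.88 ± 0.31 (adjusted p = 0.0608). The second was called in 7 of 20 alternatives, among them without replicate 1 (adjusted p = 0.00746) or replicate 2 of 12 weeks (0.0499). Another, dimmer Hoxa9 probe overlapped between the groups in every comparison. Its changes were -0.46 ± 0.24 at 12 weeks and -0.55 ± 0.24 at 60 weeks, neither called (limma adjusted p = 0.150 and 0.113).

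**Figure D3:**
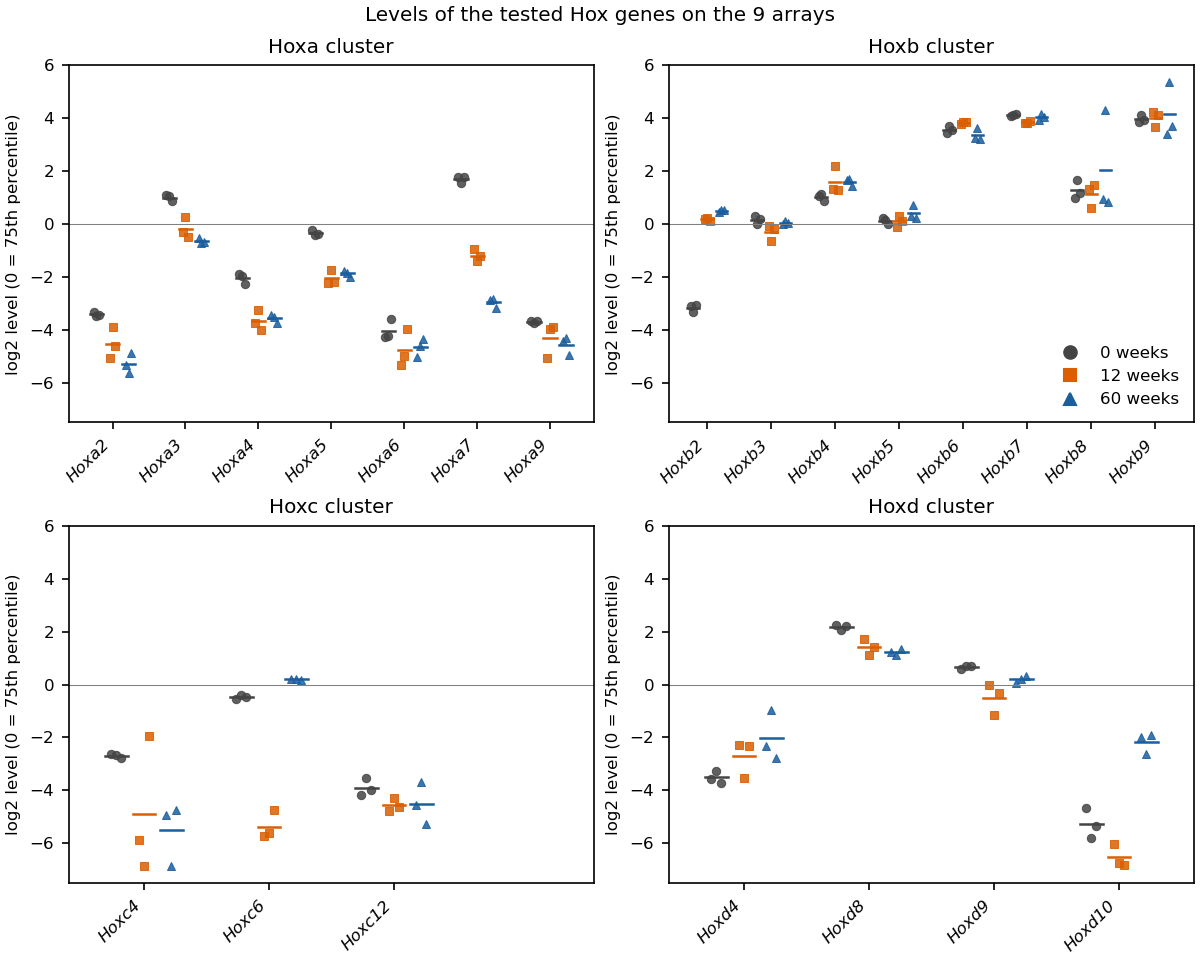
Points are the log2 levels of the 22 tested Hox genes on the 9 arrays, in 4 panels by cluster, with bars at the mean of each group of 3. Hoxa2 to Hoxa5 and Hoxa7 step down from 0 weeks (circles) to the later groups, Hoxb2 steps up, and replicate 2 of 60 weeks stands alone for Hoxb8 and Hoxb9.

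The genes next to the Hoxa cluster were lower too. Of the 3 nearest protein-coding genes on each side, 5 were tested, and all 5 were lower at 12 weeks and at 60 weeks. Skap2, a Src-kinase adaptor, had the largest change of them, -0.86 ± 0.15 at 12 weeks and -0.72 ± 0.15 at 60 weeks. Cbx3, a heterochromatin protein, changed by -0.59 ± 0.10 and -0.62 ± 0.10, and Snx10, Hibadh and Tax1bp1 by -0.33 to -0.68 and -0.35 to -0.40. Evx1, the even-skipped homologue beside the cluster, was well above background on no array. Over the other 671 tested genes of chromosome 6 the median change was -0.12 at 12 weeks and -0.19 at 60 weeks. Across the flanks of the other 3 clusters 14 genes were tested, of which 5 were lower and 1 higher at 12 weeks and 4 lower and 0 higher at 60 weeks. No test compared the Hoxa genes with their neighbours.

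**Figure D4:**
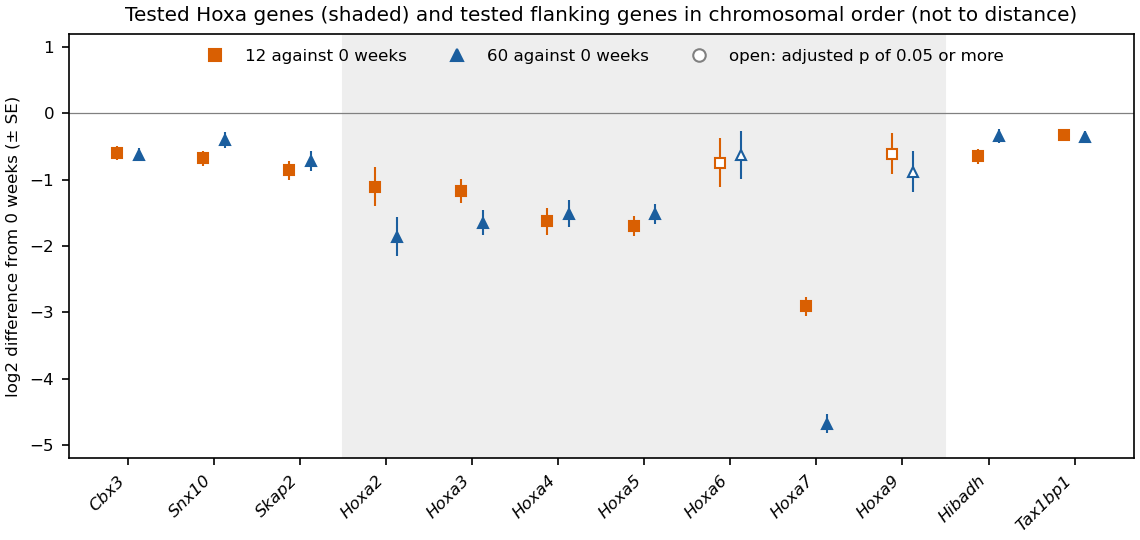
Log2 differences from 0 weeks (± SE) of the 7 tested Hoxa genes (shaded) and the 5 tested flanking genes, in chromosomal order and not to distance. All flanking values lie between -0.86 and -0.33, and Hoxa7 reaches -4.68 at 60 weeks.

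The Hoxb cluster remained detected. All 8 genes from Hoxb2 to Hoxb9 were well above background on all 9 arrays, as were 87.0% of all tested genes, and 1 of them, Hoxb2, rose. At 12 against 0 weeks 1 of the 8 was higher and 2 were lower, and at 60 against 0 weeks 1 was higher and 0 were lower. Over all tested genes 19.1% were higher and 22.7% lower at 12 weeks, and 16.7% and 16.1% at 60 weeks. The median change of the 8 was 0.02 at 12 weeks and 0.26 at 60 weeks. The difference between the Hoxa and Hoxb clusters was not tested.

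Hoxb2, with Hoxa2 a hindbrain gene of group 2, went the opposite way from its paralog. It stood at -3.11, -3.33 and -3.05 at 0 weeks, 0.19, 0.23 and 0.11 at 12 weeks, then 0.47, 0.52 and 0.51 at 60 weeks. The groups did not overlap, and each was above the one before. Hoxb2 rose by 3.34 ± 0.10 at 12 weeks, a 10.1-fold increase (limma adjusted p = 2.65e-07), and by 3.66 ± 0.10 at 60 weeks, 12.7-fold (adjusted p = 1.32e-07). Both calls held in 21 of 21 alternatives. The further 0.32 ± 0.10 between 12 and 60 weeks (adjusted p = 0.0321) was called in 11 of 21. It was lost without replicate 1 (0.0708) or 3 of 12 weeks (0.103) and without replicate 1 (0.0778), 2 (0.0789) or 3 of 60 weeks (0.0691).

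Differences in the middle of the cluster, Hoxb3 to Hoxb7, were small. Hoxb4, known for its part in blood stem cells, was at 1.07, 1.12 and 0.86 at 0 weeks, 1.32, 2.18 and 1.28 at 12 weeks, then 1.65, 1.68 and 1.45 at 60 weeks. Both later groups were above 0 weeks without overlap, and neither change of 0.58 ± 0.23 was called (limma adjusted p = 0.0747 and 0.0879). The second was called without replicate 2 of 12 weeks (adjusted p = 0.00371). Hoxb3 and Hoxb4 overlap in the annotation.

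Hoxb3 was at 0.31, 0.00 and 0.17 at 0 weeks, -0.09, -0.66 and -0.20 at 12 weeks, then 0.00, 0.09 and 0.05 at 60 weeks. Its fall of 0.48 at 12 weeks (-0.48 ± 0.15, limma adjusted p = 0.0376) was called in 8 of 21 alternatives. It was lost without replicate 1 (0.118) or 3 of 0 weeks (0.0934), replicate 3 of 12 weeks (0.0558) or any replicate of 60 weeks (0.0523 to 0.0579). Another, dimmer Hoxb3 probe was well above background on 3 of 3 arrays of each group and overlapped between the groups in every comparison. Its change at 12 weeks was -0.14 ± 0.20 (limma adjusted p = 0.587). The mean of the Hoxb3 probes gave -0.31 (limma adjusted p = 0.116). The probe that stood for Hoxb3 in the deposited value table gave -0.14 (limma adjusted p = 0.592).

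Hoxb5 was at 0.24, 0.13 and -0.02, then -0.10, 0.31 and 0.10, then 0.32, 0.72 and 0.24 at 0, 12 and 60 weeks. The ranges of the groups met or overlapped and no change was called. Hoxb6 was at 3.43, 3.69 and 3.56, then 3.76, 3.84 and 3.86, then 3.23, 3.63 and 3.21. It was lower at 60 than at 12 weeks (-0.46 ± 0.13, limma adjusted p = 0.0253), a call held in 14 of 21 alternatives and lost without replicate 1 (0.0509) or 3 of 12 weeks (0.0765) and replicate 1 (0.0908) or 3 of 60 weeks (0.0735). Hoxb7 was at 4.08, 4.13 and 4.14, then 3.81, 3.82 and 3.91, then 3.93, 4.16 and 4.06. Its fall of 0.27 at 12 weeks (-0.27 ± 0.09, adjusted p = 0.0430) was called in 5 of 21 alternatives. It was lost without any replicate of 0 or 12 weeks (adjusted p 0.0530 to 0.122) and without replicate 1 (0.0516) or 3 of 60 weeks (0.0552). Hoxb7 and Hoxa7 are paralogs, and at 60 weeks the former differed from 0 weeks by -0.07 ± 0.09 and the latter by -4.68 ± 0.15.

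Hoxb8 and Hoxb9, adjacent at the far end of the detected stretch, were high on replicate 2 of 60 weeks alone. Hoxb8 was at 1.0, 1.67 and 1.17 at 0 weeks, 1.31, 0.62 and 1.49 at 12 weeks, then 0.95, 4.30 and 0.83 at 60 weeks. Hoxb9 was at 3.85, 4.11 and 3.92, then 4.25, 3.67 and 4.13, then 3.42, 5.36 and 3.71. On that array Hoxb8 exceeded the higher of the other replicates by 3.34 and Hoxb9 by 1.66. A gap over 1.5 on that array was seen in 0.2% of the 14034 tested genes, and one over 1, which also took in Hoxd4 at 1.35, in 0.527%. These genes were noticed after their values were seen. Neither Hoxb8 (0.74 ± 0.82, limma adjusted p = 0.523) nor Hoxb9 (0.21 ± 0.45, adjusted p = 0.753) was called at 60 against 0 weeks, and without that array the differences were -0.39 (adjusted p = 0.361) and -0.39 (adjusted p = 0.178).

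The Hoxc cluster had few detected genes, and Hoxc6 was detected at 0 and 60 weeks but not at 12 weeks. Hoxc6, a thoracic gene, was at -0.56, -0.39 and -0.48 at 0 weeks. At 12 weeks it was at -5.73, -5.63 and -4.75, well above background on 0 of 3 arrays but positive and significant by the looser call on 3 of 3, and at 60 weeks at 0.21, 0.21 and 0.15. The 12 weeks arrays lay far below all the others. Hoxc6 was at least 20.2-fold lower at 12 than at 0 weeks (means -5.37 and -0.48, limma adjusted p = 2.96e-06) and at least 32.1-fold higher at 60 than at 12 weeks (adjusted p = 1.79e-06). Both calls held in 20 of 20 alternatives. Hoxc6 passed the filter only through 0 and 60 weeks, the groups where it is high, so the p-values of both calls are a description. Detection on all arrays of 0 and 60 weeks and on none of 12 weeks was shared by 30 of 14034 tested genes, 0.214%. The pattern was that of Hoxc6 itself, so the share is a description. The 60 weeks arrays were above those of 0 weeks by 0.67 ± 0.23, which was not called (adjusted p = 0.0581) but was in 7 of 20 alternatives, among them without replicate 1 (0.0438), 2 (0.0460) or 3 (0.00180) of 12 weeks.

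Hoxc4, the most anterior gene of the cluster, was at -2.63, -2.66 and -2.78 at 0 weeks and was not well above background on most later arrays. It was at -5.88, -6.86 and -1.94 at 12 weeks, then -4.91, -6.86 and -4.73 at 60 weeks, with 1 of 3 arrays well above background each time. The wide spread within the later groups left the changes of -2.20 ± 1.15 (limma adjusted p = 0.156) and -2.81 ± 1.15 (adjusted p = 0.0954) uncalled. Without replicate 3 of 12 weeks both were called (-3.68, adjusted p = 0.00430, and -2.81, adjusted p = 0.00787). Hoxc12, a posterior gene known from hair follicles, was well above background on 3 of 3 arrays at 0 weeks (-4.16, -3.53, -3.98), 0 of 3 at 12 weeks (-4.79, -4.27, -4.62) and 1 of 3 at 60 weeks (-4.56, -3.69, -5.26). Neither change was called (adjusted p = 0.172 and 0.232), the second being called without replicate 2 of 60 weeks (adjusted p = 0.0332). With Hoxc6 these were the 3 detected Hoxc genes of 9 at 0 weeks, against 0 at 12 weeks and 1 at 60 weeks.

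In the Hoxd cluster, Hoxd8 and Hoxd9 fell at 12 weeks, and Hoxd10, the next gene towards the posterior end, was detected at 60 weeks only. Hoxd4 was higher at 60 weeks. Hoxd8 was at 2.26, 2.05 and 2.21 at 0 weeks, 1.73, 1.12 and 1.42 at 12 weeks, then 1.21, 1.10 and 1.36 at 60 weeks. All later arrays were below those of 0 weeks. Hoxd8 fell by 0.75 ± 0.16 (limma adjusted p = 0.00624) and by 0.95 ± 0.16 (adjusted p = 0.00250). Both calls were lost with slide row as a block (adjusted p = 0.0889 and 0.169).

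Hoxd9 was at 0.57, 0.69 and 0.70 at 0 weeks, -0.03, -1.13 and -0.31 at 12 weeks, then 0.04, 0.21 and 0.33 at 60 weeks. The 60 weeks arrays lay between the other groups. It fell by 1.15 ± 0.25 at 12 weeks (limma adjusted p = 0.00742), a call lost with slide row as a block (adjusted p = 0.127). The differences of -0.46 ± 0.25 at 60 against 0 weeks (adjusted p = 0.191) and 0.68 ± 0.25 at 60 against 12 weeks (adjusted p = 0.0609) were not called, though both were without replicate 2 of 12 weeks (adjusted p = 0.0136 and 0.0448), the second at 0.36, and the second also without replicate 1 of 12 weeks (0.92, adjusted p = 0.0238).

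Hoxd10, a gene of the lumbar region and limb, was at -4.68, -5.81 and -5.35 at 0 weeks and -6.01, -6.73 and -6.83 at 12 weeks, well above background on no array of either. At 60 weeks it was at -1.98, -2.62 and -1.90, on 3 of 3 arrays. The 60 weeks arrays lay above all others. Hoxd10 was at least 5.81-fold higher at 60 than at 0 weeks (means -2.17 and -5.28, limma adjusted p = 0.000288) and at least 6.78-fold higher than at 12 weeks (mean -6.53, adjusted p = 5.37e-05). Hoxd10 passed the filter through 60 weeks alone, the group where it is high, so these p-values are a description. Detection on all 60 weeks arrays and on none before was shared by 35 of 14034 tested genes, 0.249%. The pattern was that of Hoxd10 itself, so the share is a description. The fit also called a fall at 12 weeks (adjusted p = 0.0188), but Hoxd10 was well above background on no array of either group, so no fold is given. By the looser positive-and-significant call it was detected on 3 of 3 arrays at 0 weeks and 1 of 3 at 12 weeks. The called fall was lost without replicate 1 of 0 weeks (0.0575) or replicate 3 of 12 weeks (0.0633). It was also lost with slide row as a block (0.241) and with normexp, another background correction (0.142). Hoxd10 and Hoxd11 overlap in the annotation, and Hoxd11, with Hoxd12 and Hoxd13, was well above background on no array.

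Hoxd4 was at -3.56, -3.25 and -3.72 at 0 weeks, -2.29, -3.54 and -2.32 at 12 weeks, then -2.31, -0.96 and -2.79 at 60 weeks. Hoxd3 and Hoxd4 overlap in the annotation. The 60 weeks arrays of Hoxd4 were all above those of 0 weeks. The rise of 1.49 ± 0.49 at 60 weeks (limma adjusted p = 0.0482) was called in 10 of 21 alternatives. It was lost without any replicate of 0 weeks (adjusted p 0.0850 to 0.132), replicate 1 (0.0562) or 3 of 12 weeks (0.0580), and replicate 1 (0.0797) or 2 of 60 weeks; without the last the difference was 0.96 (adjusted p = 0.113).

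**Figure D5:**
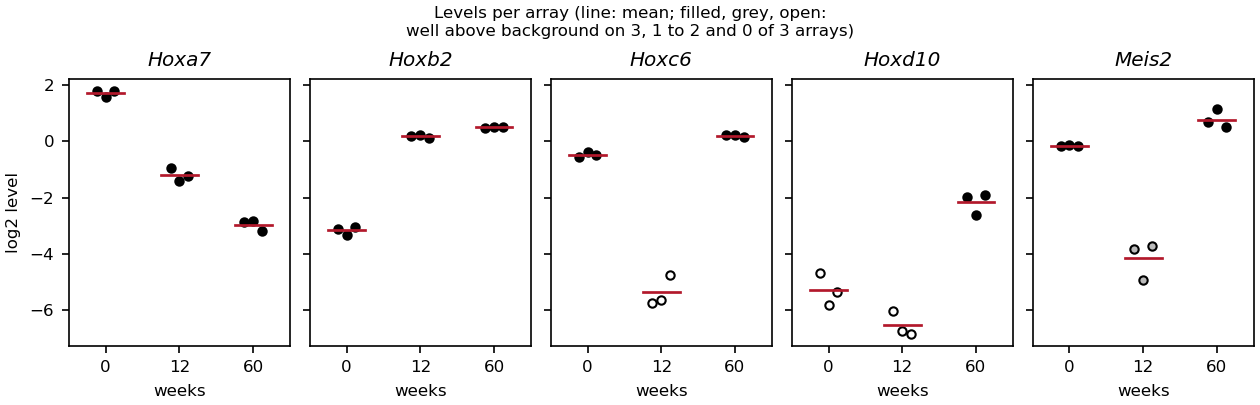
Log2 levels on each array are shown for Hoxa7, Hoxb2, Hoxc6, Hoxd10 and the cofactor gene Meis2 at 0, 12 and 60 weeks, with a line at each group mean and open points where 0 of 3 arrays were well above background. Hoxa7 steps down, Hoxb2 steps up, Hoxc6 and Meis2 dip at 12 weeks and Hoxd10 is highest at 60 weeks.

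Noncoding genes within the clusters were measured for 3 of those annotated. Hoxd3os1, transcribed opposite Hoxd3 and Hoxd4, was at -3.48, -3.11 and -3.21 at 0 weeks, -4.57, -4.54 and -4.43 at 12 weeks (1 of 3 well above background) and -3.71, -3.64 and -3.48 at 60 weeks. The 12 weeks arrays lay below all others. It fell by 1.25 ± 0.12 at 12 weeks (limma adjusted p = 0.000126) and was 0.91 ± 0.12 higher at 60 than at 12 weeks (adjusted p = 0.00100). Hoxd3os1 passed the filter only through 0 and 60 weeks, the groups where it is high, so these p-values are a description. Hoxa11os and the Hoxb transcript Gm53 had no called change. The probe sequences were not used here, so the strand read by a probe was not tested.

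Of 7 tested TALE cofactor genes, 2 rose and 2 fell at 12 weeks, 1 rose and 0 fell at 60 weeks against 0, and 3 rose and 2 fell from 12 to 60 weeks. For this and the lists below, the shares over all tested genes were 19.1% higher and 22.7% lower at 12 weeks, 16.7% and 16.1% at 60 weeks, and 20.7% and 17.6% from 12 to 60 weeks, and counts near those shares say nothing particular of a list. Meis2, which like its relatives helps Hox proteins bind DNA, was at -0.18, -0.14 and -0.16 at 0 weeks, -3.82, -4.94 and -3.72 at 12 weeks (2 of 3 well above background) and 0.67, 1.15 and 0.49 at 60 weeks. Its 12 weeks arrays lay below all the rest, as those of Hoxc6 did. Meis2 fell by 4.0 ± 0.31 (limma adjusted p = 3.91e-05) and was 4.93 ± 0.31 higher at 60 than at 12 weeks (adjusted p = 1.71e-05). Pbx4 was 0.71 ± 0.18 higher at 60 than at 0 weeks (adjusted p = 0.0174), and Pbx2 and Pbx3 rose by 0.36 ± 0.08 and 0.31 ± 0.08 at 12 weeks. Meis1 and Pknox2 were well above background on no array.

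Of the ParaHox genes, sisters of the Hox clusters that include the intestinal CDX factors, 2 of 6 were tested. Cdx2, the intestinal identity factor, was at 3.61, 4.02 and 3.80 at 0 weeks, 4.86, 4.33 and 4.68 at 12 weeks, then 3.86, 4.49 and 4.11 at 60 weeks. The 12 weeks arrays lay above those of 0 weeks and Cdx2 rose by 0.82 ± 0.20 (limma adjusted p = 0.0126). The 60 weeks value of 0.34 ± 0.20 above 0 weeks was not called (adjusted p = 0.223). Cdx1 differed by -0.30 ± 0.37 and -0.47 ± 0.37, neither called.

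Of 26 tested Polycomb genes, 4 were higher and 12 lower at 12 weeks, where 22.7% of all genes were lower. At 60 weeks 2 were higher and 5 lower, near the 16.1% of all genes that were lower, and 11 were higher and 4 lower from 12 to 60 weeks. The median change was -0.29, -0.02 and 0.30, against -0.06, -0.04 and 0.02 over all genes. Phf19, an accessory subunit of complex 2, fell by 1.59 ± 0.21 and 1.22 ± 0.21 (limma adjusted p = 0.000615 and 0.00276). Phf1 fell by 0.70 ± 0.10 at 12 weeks, and Cbx6 rose by 0.97 ± 0.11 at 12 weeks. Ezh2, the methyltransferase of complex 2, stood at 2.46 ± 0.07, 2.48 ± 0.01 and 2.18 ± 0.15 (SD, n = 3).

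Of 12 tested Trithorax and H3K27 demethylase genes, 3 rose and 0 fell at 12 weeks and 4 rose and 0 fell at 60 weeks, where 19.1% and 16.7% of all genes rose. Kdm6b, which removes the Polycomb mark, rose by 0.77 ± 0.14 and 0.69 ± 0.14 (limma adjusted p = 0.00320 and 0.00658). Kmt2d rose by 1.24 ± 0.25 and Ash2l by 0.56 ± 0.14 at 12 weeks, and Dot1l by 0.50 ± 0.13 at 60 weeks. Of 7 CTCF and cohesin genes, which fold the clusters, 0 rose and 3 fell at 12 weeks and 0 rose and 1 fell at 60 weeks. Smc1a fell by 0.43 ± 0.09 and 0.48 ± 0.09 (adjusted p = 0.00486 and 0.00366).

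Of 14 tested retinoic acid genes, 3 rose and 3 fell at 12 weeks, near the 19.1% and 22.7% of all genes, 2 rose and 3 fell at 60 weeks, and 5 rose and 4 fell between 12 and 60 weeks. Cyp26b1, which breaks retinoic acid down, was at 0.91, 1.29 and 0.91 at 0 weeks, -4.08, -2.98 and -3.05 at 12 weeks, then -0.56, -0.63 and -0.86 at 60 weeks. It fell by 4.41 ± 0.28 and by 1.72 ± 0.28 (limma adjusted p = 1.28e-05 and 0.00228). Aldh1a3, a synthesis enzyme, rose by 3.97 ± 0.42 at 12 weeks (adjusted p = 0.000194). Rarb is a receptor gene that is itself a target of the pathway. Its arrays well above background numbered 0 of 3 at 0 weeks, 3 of 3 at 12 weeks and 1 of 3 at 60 weeks. It was at least 1.87-fold higher at 12 than at 0 weeks (means -3.84 and -6.93, limma adjusted p = 1.19e-05). Rarb passed the filter through 12 weeks alone, the group where it is high, so this p-value is a description.

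Markers of the labelled tissue and of other cells were read beside these results. All 10 colon epithelium markers were detected at all 3 times. At 12 weeks 3 of the 10 were higher and 0 lower, at 60 weeks 1 was higher and 0 lower, and from 12 to 60 weeks 0 were higher and 3 lower. Those higher at 12 weeks were Vil1, a brush border protein (0.52 ± 0.12), Cdx2, and Car1, a carbonic anhydrase of colon (4.03 ± 1.16, limma adjusted p = 0.0240), and Cdh1 was higher at 60 weeks (0.34 ± 0.10). Krt8, a keratin of simple epithelia, stood at 8.50 ± 0.13, 8.56 ± 0.10 and 8.46 ± 0.11 (SD, n = 3). Gata4, a factor of the proximal intestine, was well above background on 1 of 3 arrays at 0 weeks. It rose by 2.44 ± 0.20 at 12 weeks and by 5.84 ± 0.20 at 60 weeks (limma adjusted p = 5.02e-05 and 5.72e-07). Gata4 passed the filter only through later groups, where it is high, so these p-values are a description. Onecut2, also on the list for small intestine, fell by 0.98 ± 0.23 and by 4.35 ± 0.23 (adjusted p = 0.00956 and 5.71e-06).

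Mesenchyme, which in the embryonic gut carries its own Hox code, has 11 markers on the list, of which 4 were tested. Pdgfra, Pdgfrb, Dcn, Lum, Twist1 and Thy1 were well above background on no array. The summed linear level of the 11 ran from 0.328 to 0.432 at 0 weeks, 0.385 to 0.527 at 12 weeks and 0.322 to 0.406 at 60 weeks, in units of the 75th percentile. Of the 4 tested mesenchymal markers, 3 were detected in each group, and at 12 against 0 weeks 1 was higher and 1 lower. Vim was well above background on the 3 arrays of 12 weeks alone (-2.71, -1.86, -2.92), where Hoxc6 and Meis2 were low. Col1a1 was well above background on 0 of those arrays and on all arrays before and after, as Hoxc6 was. The rest of the tested markers were detected at all 3 times. Col1a1 was at least 3.15-fold lower at 12 than at 0 weeks (means -5.52 and -3.26, limma adjusted p = 0.000767). Col1a1 passed the filter only through 0 and 60 weeks, the groups where it is high, so this p-value is a description. Of 7 measured immune markers, Cd3e, Csf1r and Itgam were detected at all 3 times, and the others, among them Ptprc, Lyz2 and Cd79a, were well above background on no array. The summed level of the list was 16.7 to 23.4 at 0 weeks, 24.3 to 47.9 at 12 weeks and 27.3 to 34.4 at 60 weeks, and 1 of the 3 tested, Csf1r, was lower at 60 than at 0 weeks (-0.37 ± 0.09, adjusted p = 0.0169). Of 5 endothelial markers, Pecam1 and Kdr were detected at all 3 times with no called change, Cdh5, Tek and Emcn were well above background on no array, and the summed level ran from 6.84 to 11.3 over all arrays. Of 5 tested genes of the list for enteric neurons and glia, 2 were higher and 1 lower at 60 against 0 weeks, with a median of -0.34. Tubb3 rose by 3.49 ± 0.16 at 60 weeks (limma adjusted p = 3.36e-06). Ret, at 0 of 3 arrays before, was at least 3.04-fold higher at 60 than at 0 weeks (means -3.13 and -6.68). Ret passed the filter through 60 weeks alone, the group where it is high and where Hoxd10 was detected. The gene of this list that was lower is not reported here by name. The part of these markers in the Hox results was not tested. In bulk RNA fewer cells of a kind and less RNA per cell cannot be told apart.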

How the data were processed

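RNA of 9 samples was hybridised to Agilent arrays, and the deposited scanner files hold an intensity per spot, background-subtracted and detrended by Agilent Feature Extraction 10.7.3.1 (protocol GE1_107_Sep09), per the file headers, with well-above-background calls; the design refers to mm9:NCBI37:Jul2007. The deposited value table holds a signal that equals the intensity divided by 1 constant per array on a linear scale, and it served as an alternative. The labels' protocols give total RNA labelled with Cy3.

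Spots called outliers (117 to 163 of 59305 per array) were left out, spots of a probe averaged, and log2 values taken relative to the 75th percentile of each array. No spot was saturated (0 on every array). RefSeq accessions named 27235 probes; 28446 had no symbol and 0 had several. The brightest probe stood for a gene. Genes detected on at least 2 of 3 arrays of 1 group (14034) were fitted with limma 3.58.1 in R 4.3.3, on all 9 arrays without a block, two-sided, with other scalings, blocks, array weights and left-out arrays as alternatives. "At least" folds set each array of a group without any detected array at its lowest signal well above background or the gene's own, if higher. Tables and figures used Python 3.11.15. The fit was tested on simulated data.

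Array number, 3 a group, limits precision. The named-gene rule covers each of the 38 Hox genes, up to 4 members per regulator list by the adjusted p of the F test, the 3 nearest protein-coding genes on each side of a cluster, and noncoding genes within it; Ezh2 and the markers named from the cell type lists were picked after their values were seen. Members and lists were chosen with earlier results of these data known. The planned normexp correction, an alternative, ran on median spot signals with an offset of 50. Some genes of the lists are counted but not reported here by name.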

Additional observations from a re-analysis of the deposited data

Results flagged for a closer look

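5 of the 22 tested Hox genes differed between 12 and 60 weeks by the limma test of that difference. Their change from 0 weeks was thus not the same at both times (the shared 0 weeks arrays cancel in that test). The share was 22.7%, against 38.3% of all tested genes, so the count is nothing particular to Hox genes. Hoxd10 passed the filter through 60 weeks alone, the group where it is high, and Hoxc6 only through 0 and 60 weeks, where it is high. The log2 difference of 60 against 12 weeks was -1.77 for Hoxa7, 0.32 for Hoxb2, -0.46 for Hoxb6, 5.56 for Hoxc6 and 4.36 for Hoxd10. The values for Hoxc6 and Hoxd10 are fitted against a 12 weeks group not well above background and are no measured folds; the bounds are 32.1-fold and 6.78-fold. Groups of 3 arrays were too small for a test of single outlying arrays.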

How the results depend on the processing

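In 21 alternative settings, 15 of the 26 calls of Hox genes passed the threshold in every setting that gave a value: Hoxa3, Hoxa4, Hoxa5, Hoxa7, Hoxb2 and Hoxc6 at 12 against 0 weeks, Hoxa2, Hoxa3, Hoxa5, Hoxa7, Hoxb2 and Hoxd10 at 60 against 0 weeks, and Hoxa7, Hoxc6 and Hoxd10 at 60 against 12 weeks. Hoxa2 and Hoxd10 were tested only because 1 group was high, and Hoxc6 only through 0 and 60 weeks, where it is high. Passing in every setting therefore says little of these genes. With slide row as a block, Hoxa4 at 60 weeks (adjusted p = 0.0675), Hoxd8 (0.0889 and 0.169) and Hoxd9 at 12 weeks (0.127) were not called. The same block also lost Hoxb3 (0.393), Hoxb7 (0.138) and Hoxd10 (0.241) at 12 against 0 weeks. It lost Hoxd4 at 60 against 0 weeks (0.112), and Hoxb2 (0.124) and Hoxb6 (0.112) at 60 against 12 weeks. Row 1 holds the 0 weeks arrays and replicate 1 of 12 weeks, and row 2 the other arrays of slide 1, so row and group largely coincide. Slide 2 holds only replicate 3 of 60 weeks, and with the slide as a block 10, 9 and 4 Hox genes were called at 12 against 0, 60 against 0 and 60 against 12 weeks. This block gave the same fit as leaving out that array, and the tallies over the alternative settings count both. The replicate block gave 13, 9 and 4 Hox genes and 5795 genes in all at 12 against 0 weeks. Deviations of same-numbered arrays of different groups correlated at -0.08 to 0.20, and those of differently numbered arrays at -0.24 to 0.16. With 3 arrays a group these values cannot decide whether equal numbers pair samples. Leaving out 1 array, Hox calls ran from 8 to 11, 8 to 13 and 3 to 7, calls over all genes from 4228 to 7405, 3195 to 6022 and 3624 to 7072, and the F test from 10 to 12. Array weights gave 16 and 8 Hox genes at 60 against 0 and 60 against 12 weeks, 17 in the F test and 7605 genes in all at 60 against 0 weeks. Fitting only the groups compared gave 14 and 3 Hox genes. The row block gave 1392 and 3468 genes in all at 60 against 0 and 60 against 12 weeks. By the looser positive-and-significant call 26 Hox genes were detected at 12 weeks. Among 1350 values of single Hox genes, 36 turned sign, none of them a called change. At 60 against 12 weeks Hoxa6 became -0.0385 with the slide, -0.33 with the row and -0.42 with array weights. There Hoxb4 became -0.0178 with normexp, -0.0531 with the percentile over bright probes, -0.000664 with quantile normalization and -0.0629 with the row, and Hoxb9 -0.42 with array weights. At 60 against 0 weeks Hoxb3 became 0.0343 in the value table and 0.23 with the row, Hoxb9 -0.27 with array weights and Hoxd9 0.17 with the row. At 12 against 0 weeks Hoxb5 became 0.0254 with the bright percentile and Hoxb8 0.0274 with the row and 0.0131 with array weights. At 60 against 12 weeks, leaving out 1 array gave -0.0556 to 0.33 for Hoxa4, -0.17 to 0.52 for Hoxa6, -0.15 to 0.29 for Hoxb4, -0.25 to 1.48 for Hoxb8, -0.45 to 0.52 for Hoxb9, -1.59 to 0.86 for Hoxc4 and -0.35 to 0.44 for Hoxc12. At 12 against 0 weeks, leaving out 1 array gave -0.12 to 0.0878 for Hoxb5, -0.32 to 0.12 for Hoxb8 and -0.0579 to 0.23 for Hoxb9. At 60 against 0 weeks, leaving out 1 array gave -0.39 to 1.34 for Hoxb8 and -0.39 to 0.58 for Hoxb9. The causes were not tested. With 3 arrays a group and probes near background, changes of dim Hox genes are poorly resolved.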
